A study of Homo sapiens with 6 samples.

Results

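The 49 interferon-stimulated effector genes described here are the genes whose products act inside a cell after an interferon signal: conjugating enzymes, nucleic acid sensors, RNA-binding proteins, entry blockers, GTPases, nucleases and ADP-ribosyltransferases. They were taken by symbol from a list of such genes; the rule has no threshold on measured values, though the list was drawn up with earlier results of these data known. All 49 were found among the 28395 gene IDs of the count tables. The cells were A375, an established human melanoma line, treated for 72 h with 1 µM palbociclib, a CDK4 and CDK6 inhibitor, with 500 nM GSK3326595, which blocks PRMT5, an enzyme that methylates arginines, or with 0.01% DMSO as vehicle. Each of the 3 groups held 2 RNA-seq libraries of the same line, with no interferon among the listed treatments, and both drug groups were set against the same 2 DMSO libraries. Nothing in the labels says that the 2 libraries of a group came from separate cultures, so each p-value reflects how far these libraries differ, which could be technical variation alone.

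Type I and type III interferons bind receptors on the cell surface, and the kinases there activate STAT transcription factors. With IRF9 these form a complex that binds a short promoter element, the interferon-stimulated response element (ISRE), in many of the effector genes. The sensors among the effectors recognise double-stranded RNA or DNA in the cytoplasm and signal through adaptors such as MAVS and STING1 towards further interferon production, and many effector genes keep a basal level without added interferon.

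The 6 libraries held 16589153 to 20842099 counts, and 16381 genes were abundant enough to test, including 48 of the 49 effector genes; IFI27 was not. Levels are given as CPM, the count scaled by the TMM-adjusted library size, where 1 read was worth 0.048 to 0.0583 CPM, and differences are log2 fold changes from edgeR's quasi-likelihood test with the Benjamini-Hochberg adjusted p over all 16381 genes, called at 0.05. Against A375's melanoma label, CSPG4, SOX10 and MITF were present in every library, whereas the pigment enzyme genes TYR and DCT were at or near 0. In bulk RNA, a change in the number of cells of one kind and a change in RNA per cell cannot be told apart.

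Palbociclib raised more of the effector genes than it lowered. Of the 48 tested, 17 were higher in palbociclib-treated than in DMSO-treated cells, 7 were lower and 24 did not pass the test. This is 50% called, where 39.5% of all genes tested were called; the higher calls made up 35.4% of the effector genes against 19.3% of all genes, and the lower calls 14.6% against 20.2%. The median log2 fold change was 0.19 over the effector genes and -0.02 over all genes tested, and the effector genes ran between -0.83 and 1.39. Both palbociclib libraries lay above both DMSO libraries for 25 effector genes and below them for 11, where 35.1% and 37.4% of all genes did so. Of the 17 higher genes, 3 (GBP2, RIGI and ISG15) were up at least 2-fold, and 0 of the 7 lower genes fell that far. Among all 16381 genes tested, 846 were called at least 2-fold higher and 764 at least 2-fold lower. The lower calls numbered 4 without DMSO replicate 2 or palbociclib replicate 1.

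GSK3326595 gave fewer calls. Of the 48 effector genes, 2 were higher than in DMSO, 4 were lower and 42 did not pass, which is 12.5% called beside 18.8% of all genes tested (8.58% higher and 10.2% lower). Both GSK3326595 libraries lay above both DMSO libraries for 16 effector genes and below them for 16, where 27.6% and 29.7% of all genes did so. The median was -0.06 over the effector genes and near 0 over all genes. It became 0.06 without DMSO replicate 1, -0.10 without DMSO replicate 2 and -0.02 without GSK3326595 replicate 1. The higher calls numbered 1 without DMSO replicate 1, DMSO replicate 2 or GSK3326595 replicate 2. Set directly against GSK3326595, palbociclib gave 16 higher, 4 lower and 28 uncalled effector genes, or 41.7% called beside 34.8% of all genes (16.6% higher, 18.2% lower), with a median of 0.20 against -0.03. That median was 0.10 without GSK3326595 replicate 1, and the 16 higher calls became 10 without palbociclib replicate 1. The higher calls in that comparison made up 33.3% of the effector genes. Both palbociclib libraries lay above both GSK3326595 libraries for 24 of them and below for 10, where 31.8% and 35.7% of all genes did so.

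**Figure D1:**
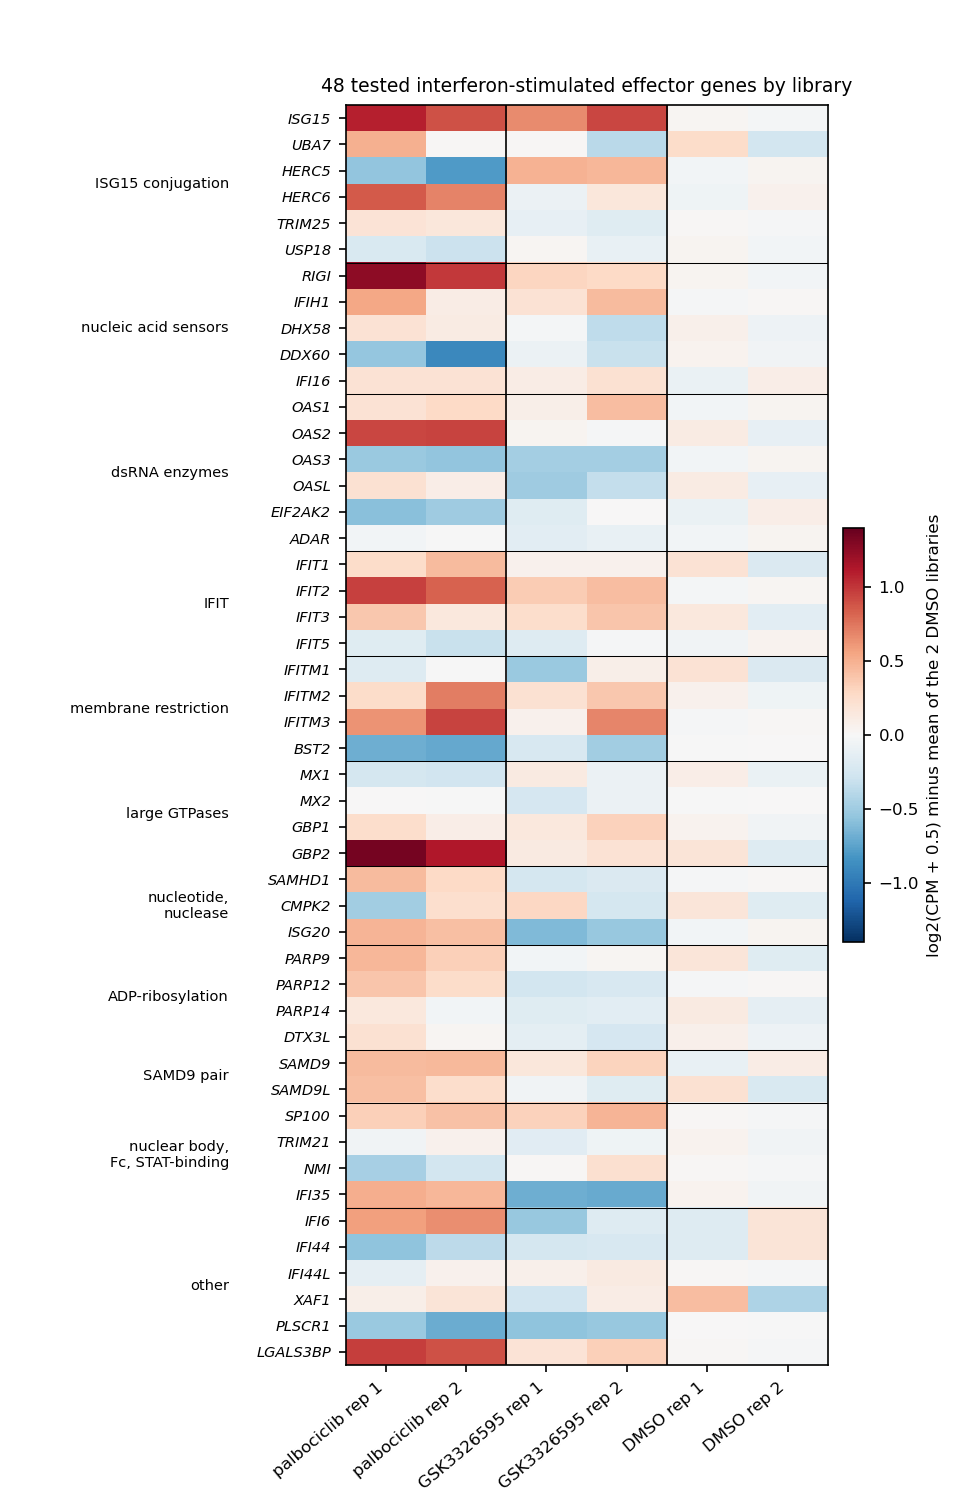
Level of each tested effector gene in each library, as log2(CPM + 0.5) minus the mean of the 2 DMSO libraries, with genes grouped by role and columns ordered palbociclib, GSK3326595, DMSO. Red squares lie above and blue squares below the DMSO mean; the palbociclib columns hold both, with GBP2, RIGI and ISG15 the strongest red.

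**Figure D2:**
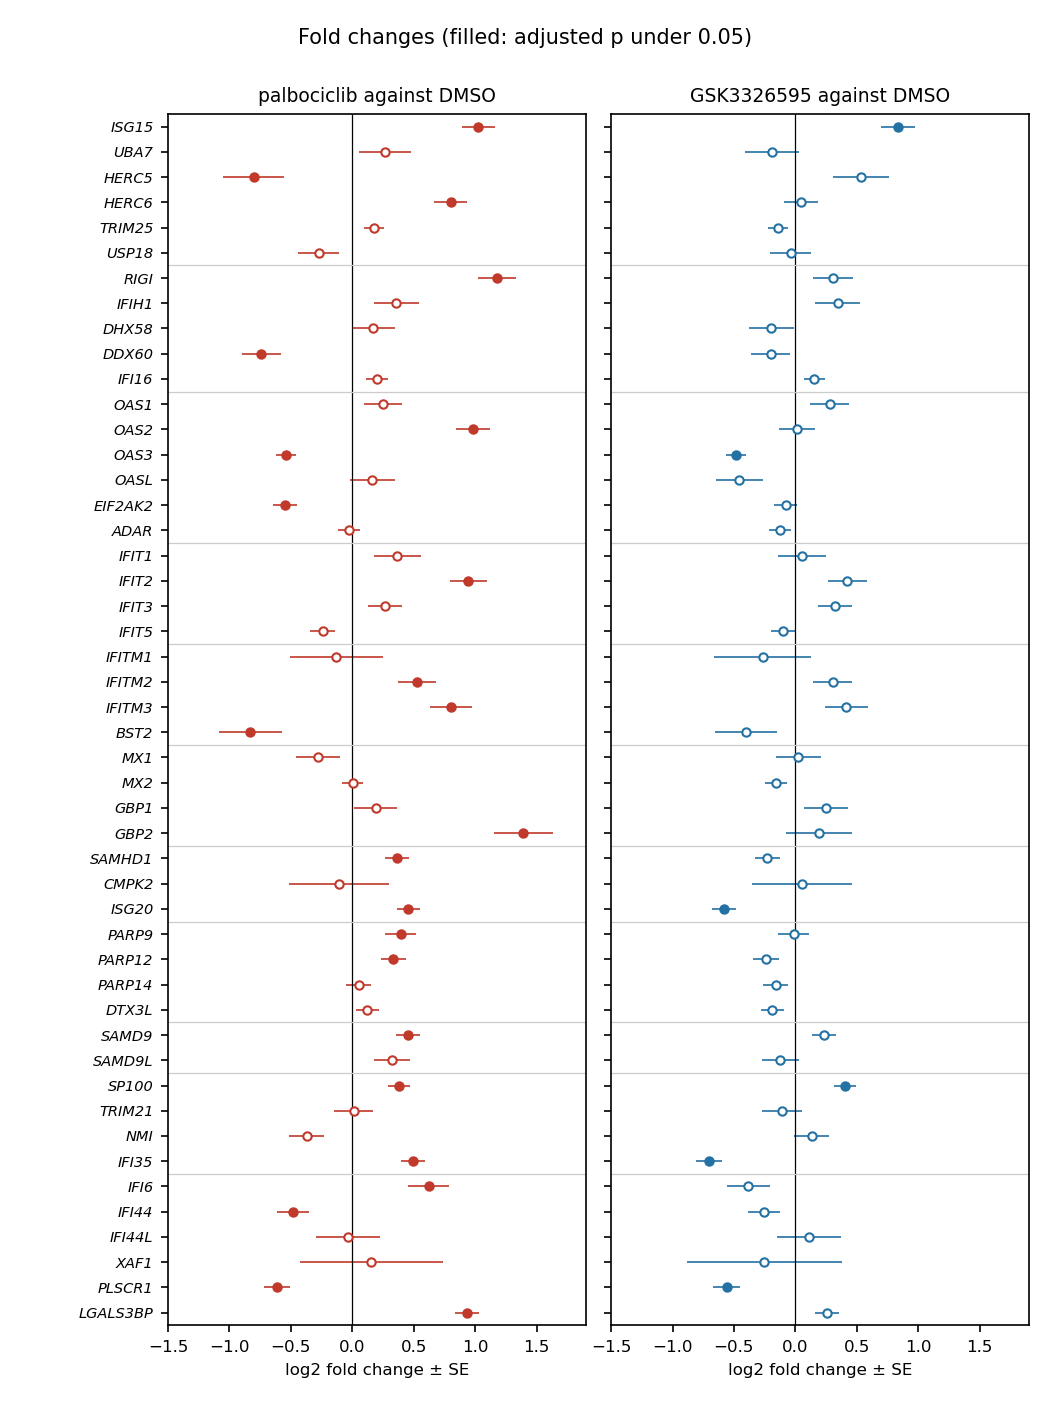
Log2 fold change ± SE of each tested effector gene in palbociclib and in GSK3326595, each against the same 2 DMSO libraries; filled points have an edgeR adjusted p under 0.05. The palbociclib points run from -0.83 to 1.39, with 24 filled, and 6 of the GSK3326595 points are filled.

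The ISG15 conjugation machinery did not move as a unit. ISG15 encodes a ubiquitin-like protein that is attached to other proteins and also secreted; its gene (NCBI Gene 9636) spans chromosome 1, 1013497 to 1014540, in RefSeq GRCh38.p14. It had 25.7 and 22.3 CPM in palbociclib-treated cells and 18.9 and 23.0 CPM in GSK3326595-treated cells, against 12.0 and 11.6 CPM in DMSO-treated cells. Every drug-treated library thus lay above both vehicle libraries. ISG15 rose in palbociclib by 1.02 ± 0.134 (log2 fold change ± SE, adjusted p = 9.47e-05, edgeR) and in GSK3326595 by 0.83 ± 0.136 (adjusted p = 0.0015), and the difference of 0.19 between the drugs did not pass the test (adjusted p = 0.274). ISG15 and SP100 were the only effector genes called higher with both drugs, in comparisons that share their DMSO libraries. How many of all genes tested were called with both drugs was not counted.

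The 2 HERC ligases, neighbours on chromosome 4 with 14021 bases between them, moved in opposite directions. HERC5 is the main ligase that attaches ISG15 in human cells, and HERC6 is the main ISG15 ligase in mouse. HERC6 had 23.2 and 20.6 CPM in palbociclib, 11.8 and 14.1 CPM in GSK3326595, and 12.0 and 13.1 CPM in DMSO. It rose by 0.80 ± 0.134 in palbociclib against DMSO (adjusted p = 0.000593, edgeR), and was 0.05 apart from DMSO in GSK3326595, which did not pass. HERC5 had 2.08 and 1.68 CPM in palbociclib, 4.78 and 4.72 CPM in GSK3326595, and 3.18 and 3.38 CPM in DMSO, so that the 3 groups did not overlap. HERC5 fell by 0.80 ± 0.25 on the log2 scale in palbociclib against DMSO (adjusted p = 0.0228) and was 1.33 lower on that scale in palbociclib than in GSK3326595 (-1.33 ± 0.242, adjusted p = 0.00134). The HERC5 call against DMSO rested on 35 to 65 reads per library in those groups: it was lost with DESeq2 (adjusted p = 0.0785) and on leaving out any 1 of the 4 libraries compared (0.0558 and 0.109 without DMSO replicates 1 and 2, 0.0617 and 0.183 without palbociclib replicates 1 and 2). Its call against GSK3326595 held in every alternative run.

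The other conjugation genes stayed uncalled against DMSO. UBA7, the enzyme that activates ISG15, had 16.9 and 12.0 CPM in palbociclib, 12.0 and 9.03 CPM in GSK3326595, and 14.3 and 9.79 CPM in DMSO, so that both drug groups overlapped DMSO; between the drugs it was uncalled with all libraries and called without GSK3326595 replicate 1 (0.69, adjusted p = 0.0258, edgeR). TRIM25, a ligase for both ISG15 and the sensor RIG-I, had 297 and 289 CPM in palbociclib, 240 and 231 CPM in GSK3326595, and 262 and 257 CPM in DMSO. Its groups did not overlap, but it passed the test only between the drugs (0.32 ± 0.0827, adjusted p = 0.011, edgeR), a call lost without palbociclib replicate 1 (0.103) or replicate 2 (0.0687). USP18, the protease that removes ISG15 and also dampens interferon receptor signalling, had 6.65 and 6.25 CPM in palbociclib, 7.93 and 7.22 CPM in GSK3326595, and 7.98 and 7.60 CPM in DMSO. USP18 did not pass in palbociclib against DMSO (-0.27, adjusted p = 0.215), and 23.4% of the 50-base windows of its transcripts also occur in another gene, its near copy USP41, so its counts are uncertain. UBE2L6, the conjugating enzyme that passes ISG15 to its ligases and a gene of the wider pathway outside the 49, had 70.8 and 70.1 CPM in palbociclib, 49.7 and 59.8 CPM in GSK3326595, and 45.1 and 47.9 CPM in DMSO. It rose by 0.60 ± 0.102 in palbociclib against DMSO (adjusted p = 0.000672, edgeR).

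Among the 5 nucleic acid sensors, palbociclib gave 1 higher and 1 lower call against DMSO, or 40% called beside 39.5% of all genes tested, and GSK3326595 gave 0. RIGI encodes RIG-I, the helicase that recognises RNA with a triphosphate end, and lies on chromosome 9, 32455302 to 32526196. It had 17.2 and 14.2 CPM in palbociclib, 8.63 and 8.50 CPM in GSK3326595, and 7.14 and 6.72 CPM in DMSO. Both palbociclib libraries stood well above the other 4. RIGI rose by 1.18 ± 0.154 in palbociclib against DMSO (adjusted p = 9.48e-05, edgeR) and was 0.87 ± 0.152 higher than in GSK3326595 (adjusted p = 0.00104), while the 0.31 in GSK3326595 against DMSO did not pass (adjusted p = 0.214).

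The other RNA helicases did not follow RIGI. IFIH1, which encodes MDA5, a sensor of long double-stranded RNA, had 11.6 and 8.46 CPM in palbociclib, 9.09 and 10.8 CPM in GSK3326595, and 7.75 and 7.91 CPM in DMSO. Its drug-treated libraries all lay above the vehicle ones, but the palbociclib pair differed widely and neither drug passed (0.36 with adjusted p = 0.142 in palbociclib, 0.34 with adjusted p = 0.224 in GSK3326595, edgeR). DHX58, which encodes LGP2, a regulator of both helicases, had 8.99 and 8.41 CPM in palbociclib, 7.58 and 5.94 CPM in GSK3326595, and 8.14 and 7.34 CPM in DMSO, and was uncalled in each comparison with all libraries; without GSK3326595 replicate 1 it passed between the drugs (0.56, adjusted p = 0.0499). DDX60, an interferon-induced helicase, had 10.4 and 8.02 CPM in palbociclib, 14.5 and 12.3 CPM in GSK3326595, and 16.0 and 14.8 CPM in DMSO. DDX60 fell in palbociclib by 0.74 on the log2 scale against DMSO (-0.74 ± 0.159, adjusted p = 0.00299), and both palbociclib libraries were the lowest of the 6. Its difference of -0.54 ± 0.161 between palbociclib and GSK3326595 (adjusted p = 0.0217) was lost without palbociclib replicate 2 (0.21) or GSK3326595 replicate 1 (0.106). IFI16, a sensor of double-stranded DNA, had 87.1 and 87.5 CPM in palbociclib, 81.2 and 88.0 CPM in GSK3326595, and 71.3 and 80.6 CPM in DMSO; the 0.20 in palbociclib did not pass (adjusted p = 0.0916), and passed on plain library totals (0.0466).

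**Figure D3:**
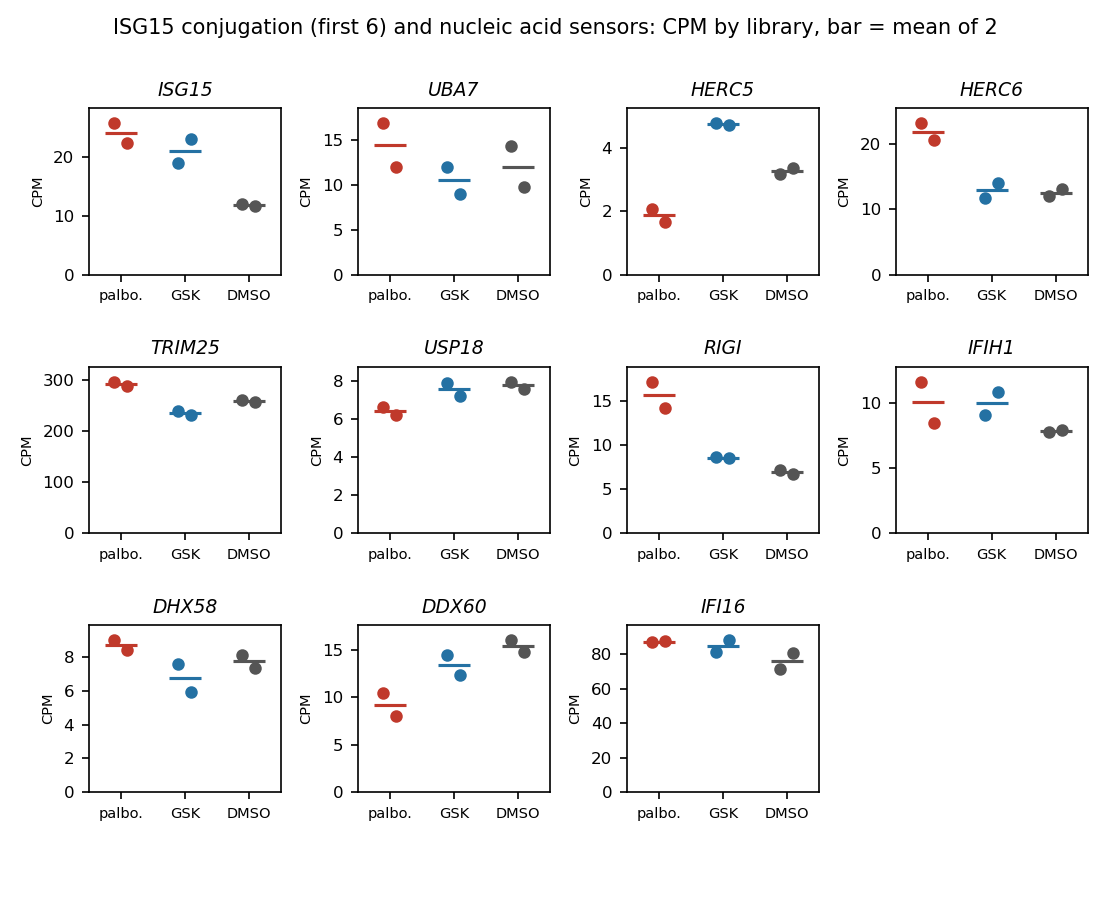
CPM in each library for the 6 ISG15 conjugation genes and the 5 nucleic acid sensors, with palbociclib, GSK3326595 and DMSO from left to right; points are libraries and bars the mean of 2. ISG15 lies higher with both drugs, RIGI and HERC6 only with palbociclib among the calls against DMSO, and HERC5 and DDX60 lie lowest in palbociclib.

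The double-stranded RNA enzymes split in the same way, with OAS2 higher and OAS3 lower in palbociclib although the genes lie 5267 bases apart on chromosome 12. The OAS enzymes make oligoadenylates on binding double-stranded RNA. OAS2 had 18.0 and 18.2 CPM in palbociclib, 9.44 and 9.09 CPM in GSK3326595, and 9.98 and 8.43 CPM in DMSO. It rose in palbociclib by 0.98 ± 0.139 against DMSO (adjusted p = 0.000176, edgeR) and by 0.97 ± 0.14 against GSK3326595 (adjusted p = 0.000298). OAS3 had 66.8 and 65.3 CPM in palbociclib and 68.6 and 68.8 CPM in GSK3326595, against 93.3 and 98.5 CPM in DMSO. Here the vehicle libraries stood above all 4 drug-treated ones, and OAS3 fell with palbociclib (-0.54 ± 0.0808, adjusted p = 0.000273) and with GSK3326595 (-0.48 ± 0.0811, adjusted p = 0.00184).

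OAS1, between 10.4 and 13.4 CPM in the drug-treated libraries against 9.54 and 10.1 CPM in DMSO, was uncalled. OASL, a family member without oligoadenylate synthesis, had 7.37 and 6.77 CPM in palbociclib, 4.31 and 4.89 CPM in GSK3326595, and 6.86 and 5.78 CPM in DMSO. It was called only between the drugs (0.62 ± 0.191, adjusted p = 0.0254, edgeR). That call was lost with DESeq2 (0.0568) and without palbociclib replicate 1 (0.153), palbociclib replicate 2 (0.0808) or GSK3326595 replicate 1 (0.0829). EIF2AK2, which encodes PKR, the kinase that halts translation on binding double-stranded RNA, had 74.0 and 78.6 CPM in palbociclib, 99.1 and 112 CPM in GSK3326595, and 104 and 119 CPM in DMSO. EIF2AK2 fell in palbociclib against DMSO (-0.55 ± 0.0952, adjusted p = 0.000764) and was lower there than in GSK3326595 (-0.47 ± 0.0954, adjusted p = 0.00265). ADAR, the enzyme that edits adenosine to inosine in double-stranded RNA, had 476 and 485 CPM in palbociclib, 440 and 455 CPM in GSK3326595, and 475 and 501 CPM in DMSO, with -0.02 in palbociclib (adjusted p = 0.855).

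Of the 4 IFIT genes, whose products bind foreign RNA ends and block their translation, 1 was called in palbociclib against DMSO. This is 25% called beside 39.5% of all genes tested. IFIT2 had 13.0 and 11.8 CPM in palbociclib, 8.39 and 8.85 CPM in GSK3326595, and 6.30 and 6.56 CPM in DMSO, so that the 3 groups stood apart. It rose by 0.94 ± 0.154 in palbociclib against DMSO (adjusted p = 0.000479, edgeR), while the 0.42 in GSK3326595 did not pass (adjusted p = 0.0868). The 0.52 ± 0.15 between the drugs (adjusted p = 0.018) was lost without palbociclib replicate 1 (0.15), palbociclib replicate 2 (0.0572) or GSK3326595 replicate 1 (0.0524). The other IFIT genes, IFIT1, IFIT3 and IFIT5, lay in the same cluster on chromosome 10, and their log2 fold changes in palbociclib of 0.37, 0.27 and -0.24 did not pass. All 4 overlap the span of LIPA in RefSeq, and whether the counting used strand is not stated in the sources read here. Likewise IFI16 overlaps AIM2, EIF2AK2 overlaps GPATCH11, SAMHD1 overlaps TLDC2 and CMPK2 overlaps RSAD2. UBA7 overlaps MIR5193, and TRIM25 overlaps MIR3614.

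Palbociclib-treated cells had more RNA of 2 of the 3 IFITM genes, whose products block the fusion of viruses with cell membranes. Of all genes tested, 19.3% were called higher in palbociclib against DMSO. IFITM3, on chromosome 11, 319676 to 320860, had 52.6 and 65.8 CPM in palbociclib, 35.4 and 55.0 CPM in GSK3326595, and 33.6 and 34.3 CPM in DMSO. It rose by 0.80 ± 0.171 in palbociclib against DMSO (adjusted p = 0.00294, edgeR). GSK3326595 replicate 2 lay within the palbociclib range and replicate 1 close to DMSO. The 0.41 in GSK3326595 against DMSO did not pass (adjusted p = 0.119), but passed without its replicate 1, at 0.70 (adjusted p = 0.000925). Between the drugs IFITM3 did not pass (0.39, adjusted p = 0.0944), and without GSK3326595 replicate 2 it did, at 0.75 (adjusted p = 0.000415).

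IFITM2 had 16.8 and 23.2 CPM in palbociclib, 16.2 and 18.2 CPM in GSK3326595, and 14.6 and 13.3 CPM in DMSO. Its call in palbociclib against DMSO (0.53 ± 0.156, adjusted p = 0.0181, edgeR) was lost without DMSO replicate 2 (0.0834) or palbociclib replicate 2 (0.267). IFITM1 had 1.17 and 1.39 CPM in palbociclib, 0.816 and 1.51 CPM in GSK3326595, and 1.67 and 1.15 CPM in DMSO, overlapping throughout. The 3 genes share sequence: 32% of the 50-base transcript windows of IFITM1, 34.1% of IFITM2 and 17.4% of IFITM3 also occur in other genes, so reads may have been split between them. BST2, or tetherin, which holds budding viruses at the cell surface, had 1.98 and 1.92 CPM in palbociclib, 2.91 and 2.33 CPM in GSK3326595, and 3.46 and 3.49 CPM in DMSO. BST2 fell by 0.83 on the log2 scale in palbociclib against DMSO (-0.83 ± 0.255, adjusted p = 0.0218). This call came from 39 to 67 reads per library and was lost with DESeq2 (0.0862) and on leaving out any of the 4 libraries compared (0.0664 and 0.0882 without DMSO replicates 1 and 2, 0.105 and 0.128 without palbociclib replicates 1 and 2).

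GBP2 had the highest log2 fold change of the effector genes in palbociclib against DMSO. It encodes a guanylate-binding protein, one of a family of large GTPases that act on intracellular pathogens, and lies on chromosome 1, 89106132 to 89126114. GBP2 had 6.45 and 5.48 CPM in palbociclib, 2.51 and 2.68 CPM in GSK3326595, and 2.62 and 1.93 CPM in DMSO. It rose in palbociclib by 1.39 ± 0.242 against DMSO (adjusted p = 0.00076, edgeR) and by 1.20 ± 0.24 against GSK3326595 (adjusted p = 0.00239). The GSK3326595 and DMSO libraries overlapped. These values rested on 127 and 114 reads in palbociclib, 43 and 46 in GSK3326595, and 47 and 37 in DMSO. GBP2 also shares 10.2% of its 50-base transcript windows with other genes, GBP1 among them. Its neighbour GBP1, 40923 bases away, had 7.37 and 6.58 CPM in palbociclib, 6.82 and 7.75 CPM in GSK3326595, and 6.36 and 5.88 CPM in DMSO, and did not pass. MX1 and MX2, dynamin-like GTPases that trap viral nucleocapsids, were also uncalled, at -0.28 and near 0 in palbociclib.

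ISG20 and IFI35 went up in palbociclib and down in GSK3326595. ISG20, an RNA exonuclease, had 58.2 and 56.1 CPM in palbociclib and 26.9 and 28.7 CPM in GSK3326595, against 40.6 and 42.7 CPM in DMSO. It rose in palbociclib (0.45 ± 0.0942, adjusted p = 0.00245, edgeR) and fell in GSK3326595 (-0.58 ± 0.0979, adjusted p = 0.00181), a difference of 1.04 ± 0.097 between the drugs (adjusted p = 2e-05). IFI35, a leucine zipper protein that binds NMI, had 39.5 and 38.3 CPM in palbociclib and 17.1 and 16.8 CPM in GSK3326595, against 28.6 and 26.8 CPM in DMSO. For both genes the 3 groups were widely separated in the same order. IFI35 rose in palbociclib (0.49 ± 0.0992, adjusted p = 0.00208) and fell in GSK3326595 (-0.70 ± 0.105, adjusted p = 0.000836), and differed by 1.20 ± 0.104 between the drugs (adjusted p = 1.27e-05). These calls held in every alternative run.

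SAMHD1, which breaks down deoxynucleotides, had 49 and 43.9 CPM in palbociclib, 30.3 and 31.2 CPM in GSK3326595, and 35.6 and 36.4 CPM in DMSO. It was called in palbociclib against DMSO (0.37 ± 0.0988, adjusted p = 0.0114, edgeR). That call did not survive omission of DMSO replicate 1 (0.0633) or of palbociclib replicate 1 (0.126). SAMHD1 was also 0.59 ± 0.1 higher than in GSK3326595 (adjusted p = 0.000838). NMI, the partner of IFI35, went the other way between the drugs. NMI had 9.30 and 10.8 CPM in palbociclib, 13.2 and 15.3 CPM in GSK3326595, and 13.2 and 12.8 CPM in DMSO. Its -0.37 in palbociclib against DMSO did not pass (adjusted p = 0.0587), and passed once GSK3326595 replicate 1 (0.0454) or replicate 2 (0.0432) was left out. The -0.51 ± 0.144 between the drugs (adjusted p = 0.0172) was lost without palbociclib replicate 1 (0.156) or GSK3326595 replicate 2 (0.096). CMPK2, a mitochondrial nucleotide kinase, held 18 to 38 reads per library and was uncalled.

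Of the 4 genes of the ADP-ribosylation group, PARP9 and PARP12 were called higher in palbociclib against DMSO, and PARP14 and DTX3L were not. This is 50% called beside 39.5% of all genes tested, of which 19.3% were called higher. PARP9 and DTX3L form a ubiquitin ligase together, and PARP12 and PARP14 attach single ADP-ribose units to proteins. PARP12 had 35.8 and 32.6 CPM in palbociclib, 22.7 and 23.2 CPM in GSK3326595, and 26.9 and 27.4 CPM in DMSO. Its 0.33 ± 0.102 against DMSO (adjusted p = 0.021, edgeR) was lost without either DMSO library (0.0903 and 0.0588) or without palbociclib replicate 1 (0.167), and its 0.57 ± 0.103 against GSK3326595 (adjusted p = 0.00129) held throughout. PARP9 had 34.8 and 31.7 CPM in palbociclib, 24.4 and 25.7 CPM in GSK3326595, and 28.3 and 22.3 CPM in DMSO. PARP9 was called against DMSO (0.39 ± 0.124, adjusted p = 0.0246) except without DMSO replicate 2 (0.187) or palbociclib replicate 1 (0.151), and against GSK3326595 (0.41 ± 0.125, adjusted p = 0.024) except without palbociclib replicate 1 (0.153) or GSK3326595 replicate 1 (0.0578). DTX3L, which overlaps PARP9 by 447 bases, was called between the drugs alone (0.31 ± 0.0942, adjusted p = 0.0236), and not without palbociclib replicate 1 (0.254) or GSK3326595 replicate 2 (0.089).

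The paired genes SAMD9 and SAMD9L encode large antiviral proteins that restrain cell growth. SAMD9 had 75.9 and 76.6 CPM in palbociclib, 62.2 and 69.1 CPM in GSK3326595, and 51.9 and 59.6 CPM in DMSO. It rose in palbociclib against DMSO (0.45 ± 0.0962, adjusted p = 0.00289, edgeR). SAMD9L, at 23.2 and 20.6 CPM in palbociclib, 16.7 and 15.3 CPM in GSK3326595 and 20.1 and 14.8 CPM in DMSO, did not pass against DMSO (0.33, adjusted p = 0.0975), but passed without DMSO replicate 1 (0.56, adjusted p = 0.0157). Its call between the drugs (0.45 ± 0.149, adjusted p = 0.0342) was lost on plain library totals (0.0654) and without palbociclib replicate 1 (0.199), palbociclib replicate 2 (0.0576) or GSK3326595 replicate 2 (0.0978). SP100, a protein of PML nuclear bodies, had 71.1 and 74.8 CPM in palbociclib and 70.1 and 78.1 CPM in GSK3326595, against 56.6 and 55.7 CPM in DMSO. SP100 was called higher in palbociclib (0.38 ± 0.0891, adjusted p = 0.0054) except without palbociclib replicate 2 (0.0648). In GSK3326595 it was also called higher (0.40 ± 0.0895, adjusted p = 0.00971), except without DMSO replicate 1 (0.0672), DMSO replicate 2 (0.0647) or GSK3326595 replicate 2 (0.0582). TRIM21, a cytosolic antibody receptor, was uncalled at between 7.46 and 8.79 CPM in all 6 libraries.

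LGALS3BP, a secreted glycoprotein that binds galectins, lies on chromosome 17, 78971255 to 78979923. It had 953 and 903 CPM in palbociclib, 553 and 610 CPM in GSK3326595, and 490 and 481 CPM in DMSO, with no overlap between groups. It rose in palbociclib by 0.93 ± 0.0987 against DMSO (adjusted p = 1.91e-05, edgeR) and by 0.67 ± 0.0983 against GSK3326595 (adjusted p = 0.000321). The 0.26 in GSK3326595 against DMSO did not pass (adjusted p = 0.0866), and passed on plain library totals (0.0364) and with DESeq2 (0.0365). PLSCR1, a phospholipid scramblase, had 20.4 and 18.1 CPM in palbociclib and 19.8 and 20.2 CPM in GSK3326595, against 29.6 and 29.4 CPM in DMSO. PLSCR1 fell with palbociclib (-0.62 ± 0.108, adjusted p = 0.000821) and with GSK3326595 (-0.56 ± 0.109, adjusted p = 0.00446). With OAS3 it was 1 of 2 effector genes called lower with both drugs, again against the same DMSO libraries.

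IFI6, a small membrane protein that opposes cell death, had 15.9 and 16.8 CPM in palbociclib, 7.11 and 9.20 CPM in GSK3326595, and 9.20 and 12.0 CPM in DMSO. It was 1.00 ± 0.172 higher in palbociclib than in GSK3326595 (adjusted p = 0.000945, edgeR). Its 0.62 ± 0.166 against DMSO (adjusted p = 0.0109) was lost without DMSO replicate 1 (0.0942) or palbociclib replicate 2 (0.0714). IFI44 had 23.1 and 26.5 CPM in palbociclib, 28.8 and 29.4 CPM in GSK3326595, and 30.2 and 39.1 CPM in DMSO. IFI44 was called lower in palbociclib (-0.48 ± 0.131, adjusted p = 0.0115), which did not survive omission of DMSO replicate 2 (0.179) or palbociclib replicate 1 (0.103), and in GSK3326595 its -0.25 did not pass with all libraries, but was called at -0.45 without DMSO replicate 1 (adjusted p = 0.0451). IFI44L, its neighbour, lay between 2.18 and 2.68 CPM in all libraries and was uncalled.

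IFI27 and XAF1 were near absence. IFI27, a gene often read as a marker of interferon exposure, had 4 and 5 reads in palbociclib, 2 and 1 in GSK3326595, and 1 and 0 in DMSO, and entered no test. XAF1, an inhibitor of the apoptosis blocker XIAP, had 10 and 12 reads in palbociclib, 5 and 9 in GSK3326595, and 14 and 4 in DMSO. XAF1 passed the count filter and was called in no comparison. These counts allow no statement on either gene beyond their low level.

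Neighbouring effector genes did not always move together. Within 100000 bases of each other lay 22 of the effector genes, in 9 groups. In palbociclib against DMSO, OAS2 was called higher and OAS3 lower, and HERC6 higher and HERC5 lower, while in the IFIT and GBP clusters 1 gene each was called. The difference between neighbours was not itself tested.

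**Figure D4:**
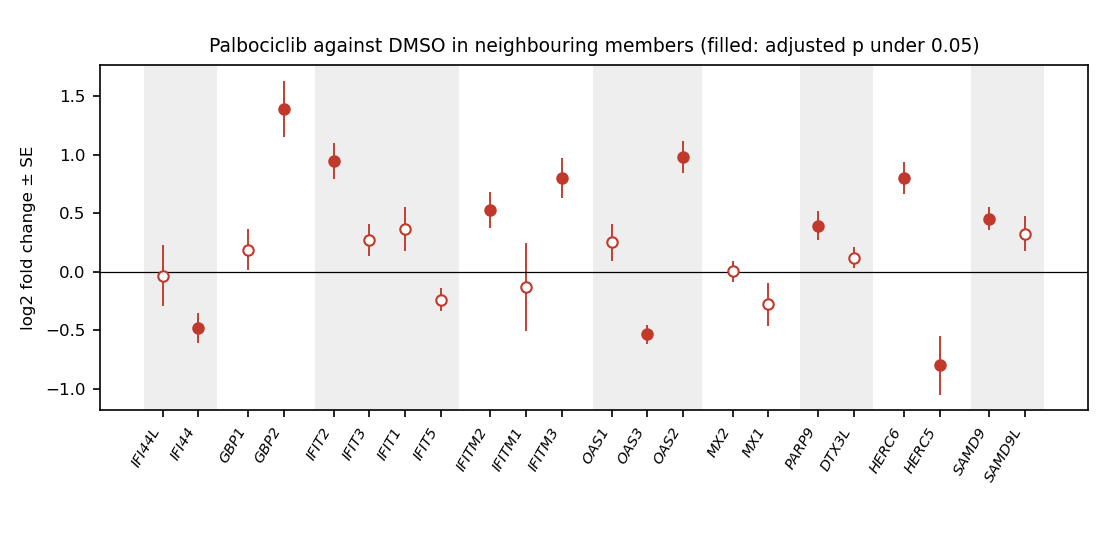
Log2 fold change ± SE in palbociclib against DMSO for the 22 effector genes that lie within 100000 bases of another, in 9 groups ordered along the genome; filled points have an edgeR adjusted p under 0.05. HERC6 at 0.80 stands beside HERC5 at -0.80, and OAS2 at 0.98 beside OAS3 at -0.54.

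Promoter sequence was read for the 40 effector genes present in the RefSeq promoter table (GRCh38.p14), over the 250 bases before to 50 bases after each listed start. The ISRE core GAAANNGAAA, or TTTCNNTTTC on the other strand, was found in 28 of 40 effector genes (70%) and in 1195 of 27305 genes of the table (4.38%). The gamma-activated motif TTCNNNGAA was found in 10 of the 40 (25%) and in 9.38% of all genes; in 5 of the effector gene windows it overlapped an ISRE core. Genes of either direction held the core: 8 of the 13 genes in the table called higher in palbociclib held it, 7 of the 7 called lower, and 12 of the 19 uncalled. A match describes letters and is not evidence of binding.

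The stretches below hold the cores of genes that moved in either direction, from RefSeq GRCh38.p14 on the strand of the gene, with the core in capitals; where a window held several, the one nearest the start is shown. ISG15 (chr1:1013364-1013419, plus strand) carries 2 overlapping cores and rose with both drugs. LGALS3BP (chr17:78979952-78980001, minus strand), IFITM3 (chr11:320866-320915, minus strand), ISG20 (chr15:88638927-88638976, plus strand) and IFI6 (chr1:27672256-27672305, minus strand) were called higher in palbociclib.
ISG15: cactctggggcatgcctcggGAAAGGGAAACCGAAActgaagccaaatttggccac
LGALS3BP: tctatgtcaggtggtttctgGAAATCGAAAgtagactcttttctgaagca
IFITM3: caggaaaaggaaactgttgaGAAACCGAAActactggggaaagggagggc
ISG20: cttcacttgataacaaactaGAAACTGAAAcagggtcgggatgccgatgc
IFI6: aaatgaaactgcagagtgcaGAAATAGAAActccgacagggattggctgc

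The stretches of genes called lower in palbociclib hold the same core. They are BST2 (chr19:17405725-17405780, minus strand), HERC5 (chr4:88457025-88457074, plus strand, with the core on the other strand), DDX60 (chr4:168318776-168318825, minus strand), PLSCR1 (chr3:146544657-146544706, minus strand) and OAS3 (chr12:112938442-112938473, plus strand).
BST2: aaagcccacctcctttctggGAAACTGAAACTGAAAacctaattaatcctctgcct
HERC5: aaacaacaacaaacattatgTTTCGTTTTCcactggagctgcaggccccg
DDX60: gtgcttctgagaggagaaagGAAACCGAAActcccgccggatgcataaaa
PLSCR1: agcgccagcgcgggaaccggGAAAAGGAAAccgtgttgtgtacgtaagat
OAS3: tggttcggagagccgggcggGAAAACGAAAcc

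BST2 carries overlapping cores as ISG15 does, and DDX60 and IFITM3 share the same 10 core letters. No core was found in the windows of HERC6 and RIGI, which rose, nor of SP100, IFI35 and SAMHD1. Entries for OAS2, IFIT2, IFITM2 and GBP2, among the genes called higher, were not in the table, nor were UBA7, USP18, DHX58, OASL and MX2.

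Of 10 interferon genes, IFNA1 and IFNE were abundant enough to test, and neither was called against DMSO. IFNE, an interferon known from epithelium of the reproductive tract, had 36 and 65 reads in palbociclib, 27 and 24 in GSK3326595, and 36 and 51 in DMSO, and was called in no comparison. IFNA1 had 22 and 15 reads in palbociclib, 4 and 5 in GSK3326595, and 12 and 7 in DMSO, and was called between the drugs only (1.78 ± 0.531, adjusted p = 0.0215, edgeR); it belongs to a family of near-identical genes. IFNB1 had 1 and 0 reads in palbociclib, 0 and 0 in GSK3326595, and 0 and 1 in DMSO. No read was counted for IFNA2, IFNW1, IFNG, IFNL2 and IFNL3 in any library.

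Of the 45 other genes of the pathway, 34 were tested; 13 were higher in palbociclib than in DMSO and 3 were lower, which is 47.1% called beside 39.5% of all genes tested. In GSK3326595 against DMSO 4 were higher and 1 was lower, or 14.7% called beside 18.8% of all genes. Between palbociclib and GSK3326595, 13 were higher and 3 lower, or 47.1% beside 34.8%. STAT2 and IRF9, which act together in the type I response, both rose in palbociclib. STAT2 had 104 and 93.4 CPM in palbociclib, 55.8 and 45.5 CPM in GSK3326595, and 66.6 and 54.2 CPM in DMSO (0.71 ± 0.12 in palbociclib against DMSO, adjusted p = 0.000653, edgeR). IRF9 had 15.3 and 16.9 CPM in palbociclib, 10.7 and 10.7 CPM in GSK3326595, and 10.3 and 7.18 CPM in DMSO (0.88 ± 0.169, adjusted p = 0.00148). For both genes the palbociclib libraries were the highest of the 6. STAT3 was called higher with palbociclib (0.48) and with GSK3326595 (0.32, adjusted p = 0.0215), and IRF3, which drives interferon genes, was called higher with palbociclib (0.39). IRF5 was called higher with GSK3326595 (1.03, adjusted p = 0.0459, edgeR), from 51 and 48 reads there and 32 and 20 in DMSO. With 52 and 41 reads in palbociclib, its 0.71 against DMSO did not pass (adjusted p = 0.108).

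Among receptors, the type I interferon receptor subunits IFNAR1 (0.30, adjusted p = 0.025, edgeR) and IFNAR2 (0.47, adjusted p = 0.0305) and IL10RB (0.44), a subunit of the type III receptor, were called higher in palbociclib against DMSO. IFNLR1, the other type III subunit, fell (-0.55, adjusted p = 0.00638). So did SOCS3, an inhibitor of cytokine signalling (-0.59, adjusted p = 0.000798). The list's 9 interferon receptor subunits and their kinases, and its 5 inhibitors, gave 0 calls in GSK3326595 against DMSO by edgeR. Of all genes tested, 18.8% were called in that comparison.

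Upstream of the interferons, the adaptors MAVS and STING1 moved apart with palbociclib. MAVS relays RIG-I and MDA5 signals. It had 513 and 499 CPM in palbociclib, 287 and 282 CPM in GSK3326595, and 355 and 325 CPM in DMSO. MAVS rose in palbociclib against DMSO (0.57, adjusted p = 0.000349, edgeR), and its -0.25 in GSK3326595 against DMSO did not pass (adjusted p = 0.0674). STING1, which relays cytosolic DNA signals, fell with palbociclib (-0.58, adjusted p = 0.00348) and with GSK3326595 (-0.64, adjusted p = 0.00538). IKBKE, a kinase that activates IRF3, was called higher with palbociclib (0.74, adjusted p = 0.00014) and with GSK3326595 (0.41, adjusted p = 0.0171). TLR3, a sensor of double-stranded RNA in endosomes, was called higher with GSK3326595 (0.57, adjusted p = 0.0467). The DNA sensor gene AIM2 had 2.84 and 2.55 CPM in palbociclib, 0.408 and 0.641 CPM in GSK3326595, and 0.502 and 0.625 CPM in DMSO. AIM2 rose by 2.24 ± 0.355 in palbociclib against DMSO (adjusted p = 0.000405, edgeR), with 56 and 53 reads against 9 and 12. Its span overlaps that of the more abundant IFI16. CGAS, the sensor that signals to STING1, had 1 read in each palbociclib library and 0 in the other 4.

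Genes listed as markers of other cell types moved with palbociclib in part. Of 11 leukocyte markers, 3 were tested, and the summed level of the list was 86.6 and 112 CPM in palbociclib, 29.5 and 36.9 CPM in GSK3326595, and 21.4 and 24.9 CPM in DMSO. HLA-DRA, an antigen presentation gene that interferon gamma induces, made up most of it, at 69.2 and 95.1 CPM in palbociclib, 20.9 and 26.7 CPM in GSK3326595, and 13.5 and 17.0 CPM in DMSO (2.43 in palbociclib and 0.64 in GSK3326595 against DMSO, both called by edgeR). LYZ was also called higher in palbociclib (1.59, adjusted p = 0.000168, edgeR). CSF1R, the other tested marker, had 2.79 and 2.88 CPM in palbociclib, 3.96 and 3.26 CPM in GSK3326595, and 3.01 and 3.18 CPM in DMSO, and was uncalled (-0.12 in palbociclib against DMSO, adjusted p = 0.71). The defining leukocyte gene PTPRC did not exceed 0.117 CPM in any library, MS4A1 and FCGR3A were at 0 in all 6. Of 3 markers of plasmacytoid dendritic cells, which make interferon, CLEC4C was at 0 in all libraries and LILRA4 did not exceed 2 reads, while IL3RA was called higher with palbociclib (0.83, adjusted p = 0.0332) and with GSK3326595 (0.91, adjusted p = 0.0434).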

How the data were processed

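RNA-seq was measured in 6 libraries of A375 cells, 2 for each of palbociclib, GSK3326595 and DMSO. The authors deposited raw counts of reads per NCBI gene ID, 1 table per library, made with CASAVA 1.8.2, cutadapt 1.7, HISAT2 and featureCounts 1.6.2 on hg38, per the submitters' processing notes, which also name limma. The annotation, the strand setting and the treatment of multimapping reads were not given in these sources. Gene IDs were matched to symbols (27745 of 28395). Genes were kept with edgeR's filterByExpr (minimum count 10), scaled by TMM and fitted over all 6 libraries with edgeR 4.0.16 (R 4.3.3) quasi-likelihood tests, with Benjamini-Hochberg adjustment over 16381 genes. With 3 residual degrees of freedom, the common biological coefficient of variation was 0.0839. Library pairs of each group differed by more than sampling noise, so none was merged. The members and other gene lists were chosen with earlier results of these data known. Genes given with full values are those of the ISG15 conjugation, sensor and IFITM groups, the 10 largest calls in palbociclib against DMSO, the 6 in GSK3326595 against DMSO, and the 6 largest between the drugs. Genes averaging under 1 CPM in each group are given as counts, and the remaining named genes were added to account for every call. Alternatives were library totals and DESeq2 size factors for scaling, no count filter, a filter of 1 CPM in 2 libraries, DESeq2 1.42.0 as the test, a replicate block, fits to the 2 groups compared, and leaving out each library.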

Additional observations from a re-analysis of the deposited data

How the results depend on the processing

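No called effector gene changed sign in any of 13 alternative fits. The calls of other pathway genes and of cell type markers were not followed through these fits. Calls held in all 13 for 15 of 24 effector genes in palbociclib against DMSO, 5 of 6 in GSK3326595 against DMSO and 12 of 20 in palbociclib against GSK3326595. With 1 library left out at a time, the lone library of a group was assumed to vary like the others. Genes called then ran from 4007 to 7259 in palbociclib against DMSO (6470 with all libraries), from 1765 to 3230 in GSK3326595 against DMSO (3081) and from 3312 to 5542 in palbociclib against GSK3326595 (5707). Effector genes lower in palbociclib against DMSO ran from 4 to 8 (7 with all), those higher in GSK3326595 from 1 to 3 (2 with all), and those higher in palbociclib than in GSK3326595 from 10 to 16 (16 with all). Of uncalled effector genes, 6, 10 and 6 passed under at least 1 alternative in those 3 comparisons. The libraries share a replicate number and no stated origin: deviations of same-numbered libraries correlated at 0.179 for palbociclib with DMSO, 0.341 for GSK3326595 with DMSO and 0.14 for palbociclib with GSK3326595, over 2 numbers. With the replicate block, GSK3326595 against DMSO called 5769 of all 16381 genes tested, and 8 of the 48 effector genes higher and 8 lower. The rise in calls was thus not limited to the effector genes. Palbociclib against DMSO called 8716 genes with the block. IFITM3 was then called in GSK3326595 against DMSO (0.39, adjusted p = 0.000856, edgeR) and between the drugs (0.40, adjusted p = 0.000217). UBA7 was called between the drugs (0.46, adjusted p = 0.00273) and IFI44 in GSK3326595 against DMSO (-0.25, adjusted p = 0.0389). The cause was not tested. DESeq2 called 5280, 2465 and 4582 genes in the 3 comparisons. Depth limits genes such as HERC5 and BST2, with under 100 reads per library.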
